A study of Mus musculus with 6 samples.

Results

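The genes described here are 9 of the 22180 genes that the array table names: Rhbg, Oat, Slc1a2, Glul, Axin2, Lgr5, Tbx3, Gulo and Slc1a4. They were picked by name as pericentral ammonium, glutamine and Wnt genes, though Gulo makes vitamin C and Slc1a4 carries small neutral amino acids. The difference between genotypes was already known, so it is given for them as a description. The livers came from male mice on the C57BL/6J background, 3 lacking the G protein-coupled receptor gene Gpr146 in the whole body (KO) and 3 wild-type (WT) littermates. All were 24 weeks old, ate chow, and were fasted for 16 hours and then refed for 6 hours. Each mouse gave 1 array, and the sources used here do not say which stretch of Gpr146 was removed. The receptor was missing in every tissue of the KO mice, so an effect arising in the liver and an effect arising elsewhere cannot be told apart.

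Hepatocytes around the central vein take up the ammonium that the urea cycle upstream has left and fix it as glutamine. Wnt ligands from the endothelium of the vein keep beta-catenin active in these cells, and beta-catenin with TCF factors switches on the pericentral programme. Glul, Oat, Slc1a2, Rhbg, Axin2, Lgr5 and Tbx3 are known in mouse liver as genes that depend on this signal. Whole liver was measured, so fewer pericentral cells and less RNA per cell cannot be told apart.

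The sequences just before the listed starts are shown for Oat, Slc1a2 and Glul because these genes had every KO liver below every WT liver and a start in the promoter table. RefSeq windows of 250 bases on GRCm38.p6 were found for 5 of the 9 genes, the other matches being Axin2 and Slc1a4. Capitals mark the TCF/LEF core (CTTTGA, or TCAAAG on the opposite strand) and the CCAAT box (CCAAT, or ATTGG on the opposite strand). Each window reads 5′ to 3′ towards the start and ends at the last base before it. The 3 windows lie at chr7:132576399-132576648 (minus strand) for Oat, chr2:102706188-102706437 (plus strand) for Slc1a2 and chr1:153899679-153899928 (plus strand) for Glul.
Oat: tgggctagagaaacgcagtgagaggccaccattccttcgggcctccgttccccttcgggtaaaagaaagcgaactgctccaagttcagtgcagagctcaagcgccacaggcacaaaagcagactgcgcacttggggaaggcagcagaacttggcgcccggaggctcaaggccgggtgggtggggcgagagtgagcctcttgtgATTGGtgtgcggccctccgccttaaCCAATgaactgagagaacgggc
Slc1a2: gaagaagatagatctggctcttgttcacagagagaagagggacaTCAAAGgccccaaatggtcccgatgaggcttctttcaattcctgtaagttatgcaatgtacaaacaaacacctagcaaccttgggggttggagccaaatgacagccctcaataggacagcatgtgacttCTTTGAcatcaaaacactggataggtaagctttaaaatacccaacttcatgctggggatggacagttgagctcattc
Glul: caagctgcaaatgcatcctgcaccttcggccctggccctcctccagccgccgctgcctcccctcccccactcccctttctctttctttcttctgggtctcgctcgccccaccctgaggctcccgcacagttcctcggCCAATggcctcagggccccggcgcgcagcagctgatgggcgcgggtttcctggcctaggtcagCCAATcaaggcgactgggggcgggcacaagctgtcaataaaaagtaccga
The Slc1a2 window held 2 TCF/LEF cores, whose first bases lie 206 and 77 bases before the start, and the Oat, Glul, Axin2 and Slc1a4 windows held 0. Of all 32851 windows in the table, 13.8% held at least 1 such core and 1.37% held at least 2. The Oat, Glul and Slc1a4 windows held 2 CCAAT boxes each and the Slc1a2 and Axin2 windows 0, a count of at least 2 being found in 10.1% of all windows. The starts listed for Slc1a2 and Axin2 lie 48199 and 2521 bases inside the genes' spans, so both are internal starts. Their windows do not describe the sequence before the first base of either gene. A match describes letters only, and binding was not measured.

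Values are the deposited log2 signals, so 1 unit is a factor of 2. A difference is KO minus WT from a limma model fitted across 11090 genes, those above the median of mean signal (the upper 50%), which included all 9. The median array signal lay between 2.67 and 2.73, and correlations between arrays, over all probe sets, were 0.983 to 0.988. Gpr146 read 4.61, 4.28 and 3.87 in KO mice 1 to 3, against 5.96, 5.56 and 5.65 in WT mice 1 to 3. Its adjusted p of 0.0702 in limma missed the threshold of 0.05. Alb, the main plasma protein of hepatocytes, was at 11.91 ± 0.01 in KO and 11.92 ± 0.02 in WT livers (SD, n = 3 each).

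Rhbg, which carries ammonium across the hepatocyte membrane and belongs to the Rh family, was lower in the KO livers. It read 3.97, 3.81 and 3.76 in KO mice 1 to 3, against 4.94, 5.16 and 4.78 in WT mice 1 to 3. The groups were 0.81 apart at their nearest, with KO mouse 1 the highest of its group and WT mouse 3 the lowest of its own. Rhbg fell by 1.12 ± 0.12 (SE), a signal 2.17-fold higher in WT (limma adjusted p = 0.0315). It was the 1 of the 9 genes that passed 0.05, while 0.0361% of all genes tested passed in either direction and 0.00902% passed as lower in KO. Those shares are the background, and the choice of genes used the same contrast. The call was kept without WT mouse 3 (adjusted p = 0.00513) and lost with any other mouse left out, at 0.0702, 0.119 and 0.137 without KO mouse 1, 2 or 3 and 0.129 and 0.122 without WT mouse 1 or 2. With a pseudocount of 16 added to the linear signal the difference was -0.64, and the call ended (adjusted p = 0.0940). With the mouse number as a block the adjusted p was 0.0792. The KO level, 3.85 on average, was close to that of Lgr5 (3.60 in KO and 3.80 in WT livers), where background on an array may compress a difference. No background level is given, so how far it bears on the fold was not tested. A second probe set listed for both Tsacc and Rhbg read 2.97, 3.07 and 3.15 in KO mice 1 to 3, against 2.90, 3.00 and 3.05 in WT mice 1 to 3, with the groups overlapping. It carries more than 1 symbol and was not counted as Rhbg.

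Oat, the mitochondrial ornithine aminotransferase that links ornithine to glutamate, read 10.16, 10.36 and 9.88 in KO mice 1 to 3, against 10.77, 10.66 and 10.78 in WT mice 1 to 3. KO mouse 3 was the lowest liver, and the KO group spread more widely (SD 0.24) than the WT group (SD 0.06). KO minus WT was -0.60 ± 0.13 (SE), which makes the WT signal 1.52-fold higher. It ran from -0.71 without KO mouse 2 to -0.47 without KO mouse 3. Slc1a2, the glutamate carrier known as GLT-1, read 5.71, 5.88 and 5.79 in KO mice 1 to 3, against 6.23, 5.96 and 6.21 in WT mice 1 to 3. WT mouse 2 lay close to the KO livers, with 0.09 between the groups, and the difference was -0.34 ± 0.11 (SE), with a range of -0.43 to -0.30 over the fits that left out 1 mouse.

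Glul, glutamine synthetase, is the enzyme that joins ammonium to glutamate and marks the innermost ring of hepatocytes. It read 10.04, 10.08 and 9.93 in KO mice 1 to 3, against 10.25, 10.28 and 10.29 in WT mice 1 to 3. The WT livers were nearly level with each other (SD 0.02), and every KO liver lay below them. The difference was -0.26 ± 0.09 (SE), or 1.20-fold higher in WT. A dimmer second probe set of Glul read 5.25, 5.62 and 5.66 in KO mice 1 to 3, against 5.64, 5.89 and 6.17 in WT mice 1 to 3. It differed by -0.39, with KO mouse 3 just above WT mouse 1.

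These 4 genes, Rhbg, Oat, Slc1a2 and Glul, were the ones of the 9 whose KO and WT values did not overlap, all with KO below. Across all genes tested 5.16% had every KO liver below every WT liver and 9.63% the reverse, and nothing is read from the count because the contrast chose the genes. Oat, Slc1a2 and Glul did not pass over all genes. The 8 genes other than Rhbg had limma adjusted p-values from 0.277 to 0.953.

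**Figure D1:**
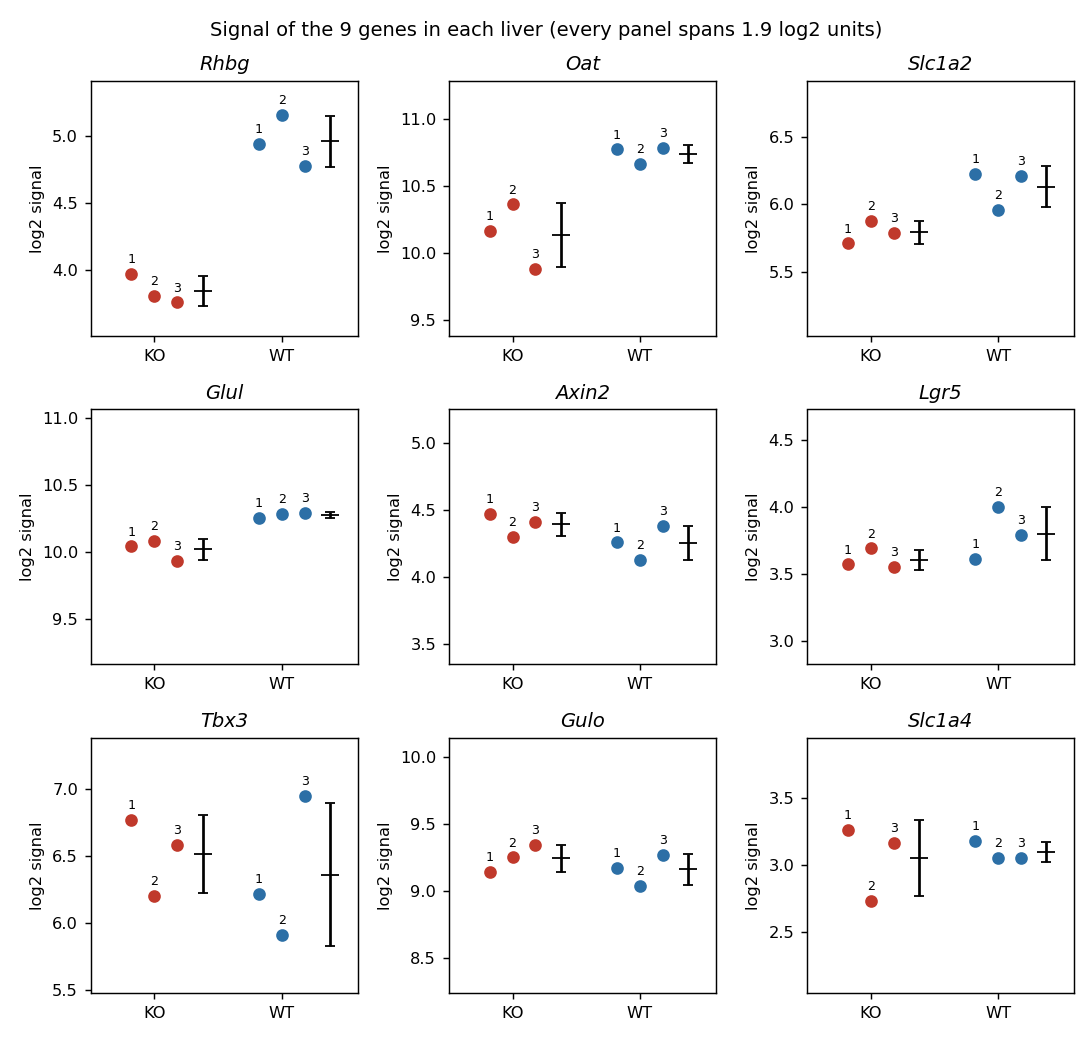
Log2 signal (vertical axes, each spanning the same range) of the 9 genes in KO livers (red, left) and WT livers (blue, right). Points are single mice with their numbers, and bars are mean ± SD of 3. Rhbg, Oat, Slc1a2 and Glul have all KO points below all WT points, and the other 5 genes overlap.

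In the Wnt pathway genes Axin2, Tbx3 and Lgr5, KO and WT livers overlapped. Axin2, a scaffold of the beta-catenin destruction complex that the pathway itself induces, read 4.47, 4.30 and 4.41 in KO mice 1 to 3, against 4.26, 4.13 and 4.38 in WT mice 1 to 3. The KO values were the higher on average, and the difference was 0.14 ± 0.10 (SE; 95% interval -0.10 to 0.37). Its second probe set read 3.61, 3.73 and 3.45 in KO mice 1 to 3, against 3.74, 3.49 and 3.60 in WT mice 1 to 3, a difference of -0.01.

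Tbx3, a T-box repressor downstream of beta-catenin, read 6.77, 6.20 and 6.58 in KO mice 1 to 3, against 6.22, 5.91 and 6.95 in WT mice 1 to 3. WT mouse 3 was the highest of all 6 livers and WT mouse 2 the lowest, so the difference of 0.15 ± 0.25 (SE; 95% interval -0.42 to 0.73) carried a wide error. Leaving out WT mouse 2 gave -0.07, and leaving out WT mouse 3 gave 0.45.

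Lgr5, the R-spondin receptor that marks pericentral hepatocytes, read 3.57, 3.69 and 3.55 in KO mice 1 to 3, against 3.61, 4.0 and 3.79 in WT mice 1 to 3. KO mouse 2 lay above WT mouse 1, and the difference was -0.20 ± 0.12 (SE; 95% interval -0.47 to 0.07). It was between -0.29 and -0.10 with a mouse left out. The second probe set of Lgr5 pointed the opposite way by 0.09, at 3.43, 3.45 and 3.38 in KO mice 1 to 3, against 3.33, 3.35 and 3.32 in WT mice 1 to 3. In it every KO liver was above every WT liver. The 2 probe sets of this gene therefore disagreed in direction, and their mean gave -0.06. Lgr5 signal was not far above the filter at 2.99.

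Gulo, the last enzyme of vitamin C synthesis in mice, read 9.14, 9.25 and 9.34 in KO mice 1 to 3, against 9.17, 9.04 and 9.27 in WT mice 1 to 3. The groups overlapped, with a difference of 0.08 ± 0.10 (SE; 95% interval -0.15 to 0.32). Slc1a4, a carrier of small neutral amino acids from the same family as Slc1a2, read 3.26, 2.73 and 3.16 in KO mice 1 to 3, against 3.18, 3.05 and 3.05 in WT mice 1 to 3. It lay just above the filter, and its difference of -0.04 ± 0.14 (SE; 95% interval -0.36 to 0.28) was 0.12 without KO mouse 2.

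**Figure D2:**
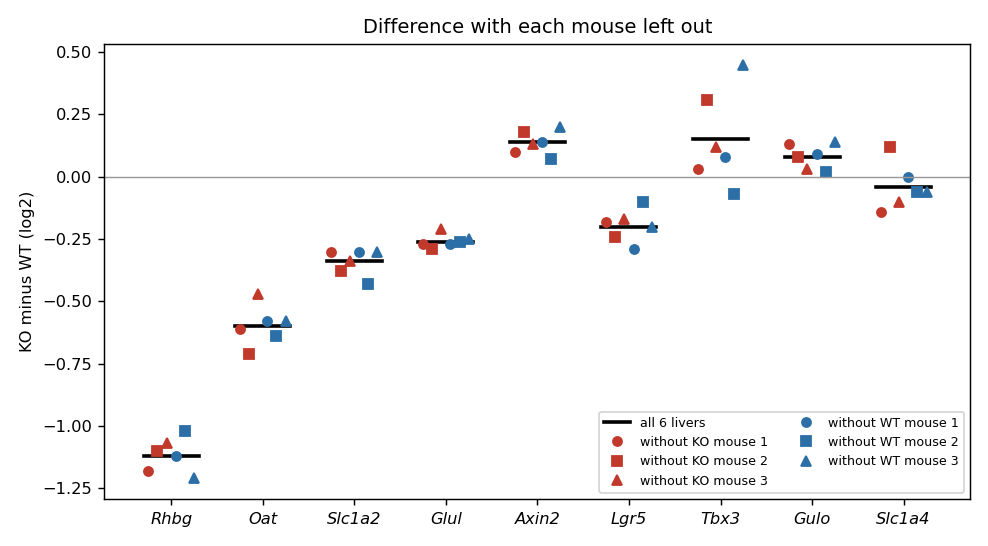
Difference KO minus WT (log2, vertical axis) of each gene with all 6 livers (black bars) and with 1 mouse left out (red for a KO mouse, blue for a WT mouse). Rhbg ran from -1.21 to -1.02, and Rhbg, Oat, Slc1a2, Glul and Lgr5 were below 0 each time, while Tbx3 and Slc1a4 changed sign.

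The question whether Rhbg, Oat and Slc1a2 were lower together with other Wnt targets was put to 15 further feedback and target genes, of which 11 were tested. With limma 0 of the 11 passed over all genes, and at an unadjusted p under 0.05 there were 0 higher and 1 lower, against 6.16% and 2.98% of all genes. The median difference was -0.017, with 6 below 0 and 5 above, beside a median of 0.027 over all genes. The list's median ran from -0.061 to 0.066 with a mouse left out, so its sign was not stable. Rnf43 and Znrf3, ligases that remove Wnt receptors, were at 0.20 ± 0.14 and 0.16 ± 0.14 (SE). Notum, a secreted enzyme that inactivates Wnt ligands, was at 0.13 ± 0.15 and Nkd1, a feedback inhibitor, at -0.22 ± 0.14. Wif1, a secreted Wnt inhibitor, was at -0.17 ± 0.11. Its KO mean of 2.91 lay below the filter at 2.99, so Wif1 entered the test through its WT mean of 3.08. Rnf43 was at 0.34 without WT mouse 1 and 0.10 without WT mouse 3, and Nkd1 at -0.09 without KO mouse 1. The 1 lower gene was Myc, a growth factor-responsive transcription factor, at -1.43 ± 0.60, or -0.6 without WT mouse 2. Myc read 4.30, 4.05 and 3.62 in KO mice 1 to 3, against 4.87, 7.07 and 4.31 in WT mice 1 to 3. Sp5, a direct target, was below the filter, at 2.46 ± 0.04 in KO and 2.69 ± 0.15 in WT livers (SD, n = 3 each). Whether Rhbg differed from these genes in its response was not tested.

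Of the 29 ligands, receptors and relay proteins of the pathway, 27 were tested and 0 passed over all genes in limma, with 1 higher and 0 lower at an unadjusted p under 0.05, against 6.16% and 2.98% of all genes. Their median was 0.058. Porcn, the acyltransferase that Wnt ligands need for secretion, read 4.15, 4.06 and 4.13 in KO mice 1 to 3, against 3.63, 3.86 and 3.75 in WT mice 1 to 3 (0.36 ± 0.10, SE; limma adjusted p = 0.346). Every KO liver was above every WT liver for this gene, as in 9.63% of all genes. Fzd7, a Wnt receptor, was at 0.29 ± 0.13 and Tcf7l1, a TCF factor, at 0.42 ± 0.19. The ligand Wnt9b was at -0.27 ± 0.13 and Rspo3, the R-spondin of the central vein, at -0.21 ± 0.12, both with overlapping groups. Tcf7l1 was at 0.23 without WT mouse 1 and 0.64 without WT mouse 2, and Fzd7 at 0.18 without KO mouse 3. Rspo3 was at -0.10 without WT mouse 2 and -0.33 without WT mouse 3. Wnt2 was below the filter, at 2.60 ± 0.19 in KO and 2.70 ± 0.19 in WT livers (SD, n = 3 each).

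Other genes of pericentral hepatocytes went both ways. Of 24 listed, 20 were tested and 0 passed over all genes in limma, with 2 higher and 3 lower at an unadjusted p under 0.05, against 6.16% and 2.98% of all genes, and a median of -0.028. Lhpp, a phosphatase, read 6.91, 7.12 and 6.44 in KO mice 1 to 3, against 7.37, 7.59 and 7.32 in WT mice 1 to 3, and differed by -0.60 ± 0.17 (SE). Aldh1a1, a retinal dehydrogenase, was at -0.27 ± 0.09, with every KO liver below every WT liver. The last of the 3 lower genes, Cyp2a5, a cytochrome named here after its values were seen, read 4.31, 4.11 and 3.84 in KO mice 1 to 3, against 4.22, 4.75 and 4.42 in WT mice 1 to 3. The groups overlapped, and its difference of -0.38 ± 0.16 (SE) was -0.25 without KO mouse 3 and -0.23 without WT mouse 2. On the opposite side Cib3 was at 0.70 ± 0.20 and Cyp1a2, a drug-metabolising cytochrome, at 0.29 ± 0.11. Every KO liver was above every WT liver for both. In this list 3 of the 20 tested genes had every KO liver below every WT liver and 2 the reverse. The shares over all genes were 5.16% and 9.63%. Cib3 read 3.43, 3.44 and 4.07 in KO mice 1 to 3, against 2.97, 2.67 and 3.18 in WT mice 1 to 3. Its WT mean of 2.94 lay below the filter at 2.99, so Cib3 entered the test only through its KO values. Cyp2e1, the classical pericentral cytochrome, was at 11.54 ± 0.04 in KO and 11.54 ± 0.03 in WT livers (SD, n = 3 each; 95% interval of the difference -0.19 to 0.20). Lect2, a secreted beta-catenin target, was at -0.16 ± 0.12 (SE).

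Periportal genes, expressed at the opposite end of the lobule, had 14 of 16 members tested and 0 past the threshold over all genes in limma. At an unadjusted p under 0.05 there were 3 higher and 0 lower, against 6.16% and 2.98% of all genes, and the median was 0.059. Those 3 were Hsd17b6, a steroid dehydrogenase, at 0.70 ± 0.15 (SE), Cdh1, E-cadherin, at 0.93 ± 0.23 and Sox9, a transcription factor of bile duct and nearby cells, at 0.41 ± 0.14. In each of them every KO liver was above every WT liver, as in 9.63% of all genes. Cdh1 read 5.55, 5.67 and 6.47 in KO mice 1 to 3, against 4.84, 4.87 and 5.21 in WT mice 1 to 3.

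**Figure D3:**
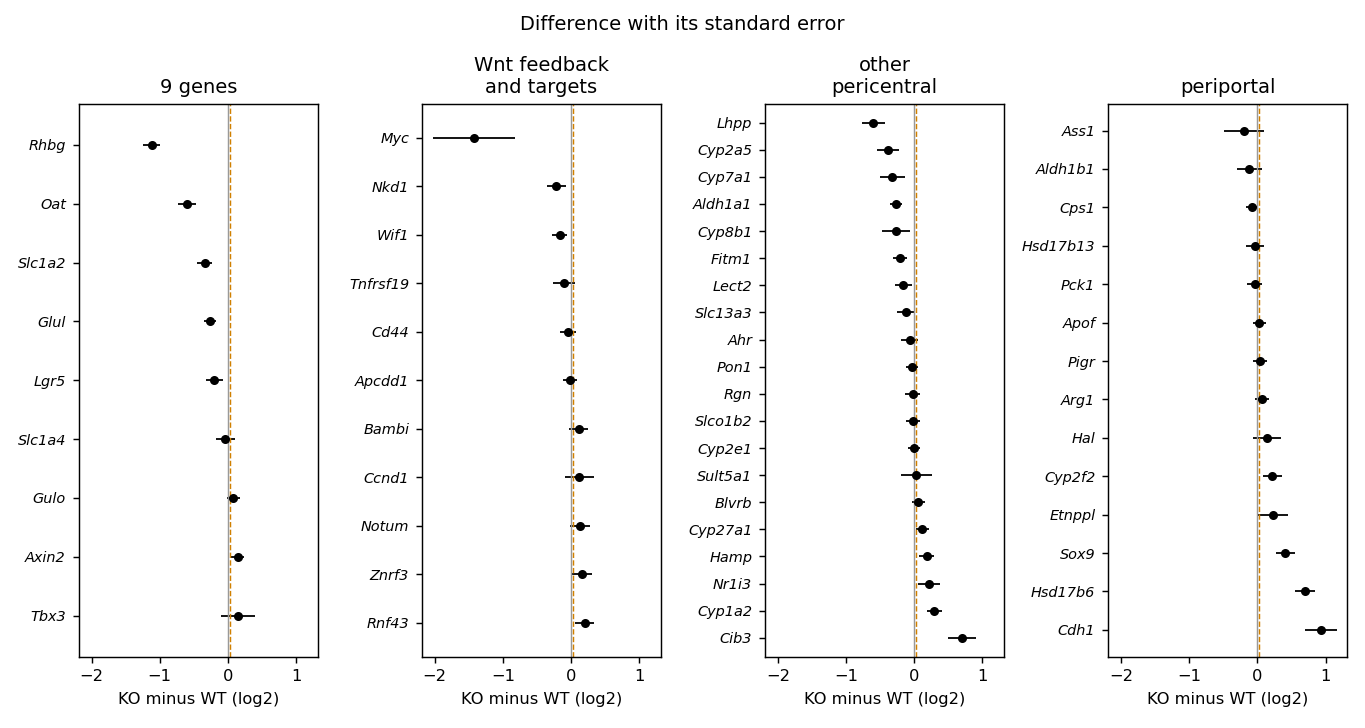
Difference KO minus WT (log2, horizontal axis) with its SE for every tested gene of 4 lists: the 9 genes, the Wnt feedback and target genes, the other pericentral genes and the periportal genes. The dashed line is the median of all genes tested, 0.027. Rhbg and Myc lie farthest to the left, and Myc has the widest error.

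Enzymes around glutamate, glutamine and ornithine had 16 of 23 members tested and 0 past the threshold over all genes in limma, with 0 higher and 1 lower at an unadjusted p under 0.05, against 6.16% and 2.98% of all genes, and a median of -0.084. The 1 was Got1, the cytosolic aspartate aminotransferase that makes and uses glutamate. Got1 read 7.13, 7.39 and 7.08 in KO mice 1 to 3, against 8.14, 8.13 and 7.88 in WT mice 1 to 3 (-0.85 ± 0.12, SE; limma adjusted p = 0.129). It passed without WT mouse 3 (0.0210) and with trend and robust options (0.0290). Cps1, which feeds ammonium into the urea cycle, was at -0.08 ± 0.09 and Glud1, glutamate dehydrogenase, at -0.08 ± 0.09. Nags, which makes the activator of Cps1, was at 0.21 ± 0.09, and Gpt2, a mitochondrial alanine aminotransferase, at -0.17 ± 0.09.

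Carriers of ammonium and amino acids had 9 of 19 members tested, 0 past the threshold over all genes in limma, 0 higher and 1 lower at an unadjusted p under 0.05 (6.16% and 2.98% of all genes), and a median of -0.049. Slc38a2, a sodium-coupled neutral amino acid carrier, was at -0.37 ± 0.13 (SE). Every KO liver lay below every WT liver for it, as in 5.16% of all genes. Slc25a22, a mitochondrial glutamate carrier, was at -0.18 ± 0.11, and Slc7a5, an exchanger of large neutral amino acids, at 0.21 ± 0.18. Slc7a5 was at 0.09 without KO mouse 2, 0.10 without WT mouse 2, 0.34 without KO mouse 1 and 0.38 without WT mouse 3. The relatives of Rhbg stayed below the filter. Rhag was at 2.00 ± 0.10 in KO and 2.07 ± 0.07 in WT livers, and Rhcg at 2.64 ± 0.14 in KO and 2.73 ± 0.19 in WT livers (SD, n = 3 each). The same held for the Slc1a2 relatives Slc1a1, at 1.80 ± 0.07 in KO and 2.07 ± 0.18 in WT livers, and Slc1a5, at 2.57 ± 0.17 in KO and 2.88 ± 0.08 in WT livers (SD, n = 3 each).

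The genes that precede Gulo on the way to vitamin C, or carry the vitamin, were 6 tested of 6. With limma 0 passed over all genes, 0 were higher and 1 was lower at an unadjusted p under 0.05 (6.16% and 2.98% of all genes), and the median was -0.138 with 5 below 0. Ugp2 and Ugdh, which make UDP-glucose and UDP-glucuronate, were at -0.26 ± 0.10 and -0.26 ± 0.14 (SE), and Akr1a1, the reductase that makes gulonate, at -0.15 ± 0.09. Ugdh was at -0.17 without KO mouse 3 and -0.14 without WT mouse 2. Gulo itself was at 0.08.

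The mean of the Wnt feedback list, each gene centred on its own mean, was -0.17 to 0.03 in KO and -0.14 to 0.33 in WT livers. That of the periportal list was 0.00 to 0.17 in KO and -0.22 to -0.01 in WT livers, so the groups did not overlap. The carriers (-0.09 to 0.00 in KO and 0.02 to 0.04 in WT livers) and the ascorbate genes (-0.09 to -0.01 in KO and 0.00 to 0.13 in WT livers) did not overlap either, both with KO below. The nearest livers were almost level, at 0.00 in KO and -0.01 in WT for the periportal list and -0.01 and 0.00 for the ascorbate list. Means of the Wnt relay, other pericentral and glutamate lists overlapped between the groups. An exact permutation test of 3 against 3 mice cannot give a p below 0.1, so these means are given as a description.

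Among the 9 genes, Oat and Glul followed each other most closely over the 6 livers (Pearson r = 0.98, or 0.92 after each genotype's mean was removed). Leaving aside symbols that end in Rik or start with Gm, Oat was the tested gene most like Glul, and Glul the one next after Cmbl in likeness to Oat. KO mouse 3 was the lowest and KO mouse 2 the highest KO liver in both. Within WT the order differed, with Oat lowest in mouse 2 and Glul lowest in mouse 1. The SDs of Oat and Glul were 0.24 and 0.08 in KO livers, against 0.06 and 0.02 in WT livers. The KO livers therefore weighed most in the 0.92. Rhbg and Oat correlated at 0.87 over the 6 livers but at -0.06 within genotypes, so their likeness lay in the step between genotypes. Axin2 and Tbx3 correlated at 0.88, and at 0.97 within genotypes. Both were lowest in WT mouse 2, highest within WT in mouse 3 and highest within KO in mouse 1. These are descriptions of 6 arrays that share the genotype step and any array effect.

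**Figure D4:**
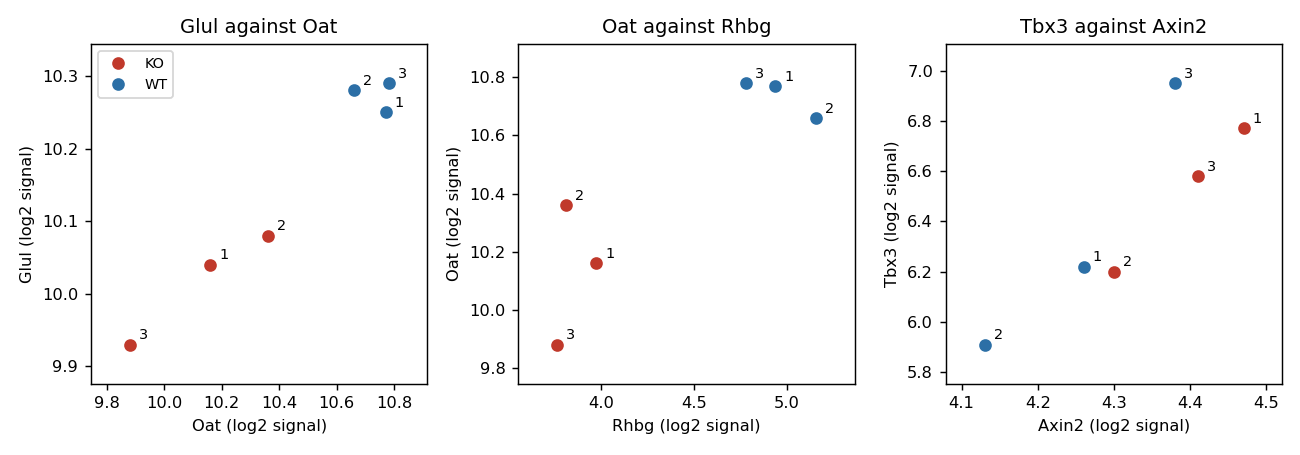
Log2 signals of 3 gene pairs in each liver, KO in red and WT in blue, with mouse numbers. Oat and Glul rise together within KO, Rhbg and Oat separate the genotypes without a shared order inside them, and Axin2 and Tbx3 run together across overlapping genotypes.

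The genes most like Rhbg over the 6 livers were Flvcr2 (Pearson r = 0.992), Dusp10 (0.985), Tle3 (0.980), Lrrc61 (0.966) and Eif1a (0.965). Within genotypes these genes correlated with Rhbg at 0.90, 0.64, 0.80, 0.53 and 0.89, in that order. Their differences were -0.14, -0.40, -0.44, -0.22 and -0.30. Tle3, a Groucho corepressor known to bind TCF factors, read 4.83, 4.82 and 4.64 in KO mice 1 to 3, against 5.21, 5.28 and 5.13 in WT mice 1 to 3. Besides Glul, Oat was most like Cmbl (r = 0.992), Ubr3 (0.982), Lss (0.981) and Hsd17b7 (0.980). Glul was most like Oat (0.984), Cmbl (0.982), Bckdhb (0.982), Ttpa (0.978) and Hsd17b7 (0.977). Lss and Hsd17b7 are enzymes of cholesterol synthesis, and they differed by -0.66 and -0.96. Shared regulation was not tested for any of these genes.

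Mean levels of cell type markers overlapped between the genotypes in every list except the bile duct list. Hepatocyte markers, Serpina1a (0.09), Fgb (0.04) and Apoc3 (0.03) among them, had centred means of 0.01 to 0.02 in KO and -0.06 to 0.03 in WT livers. Of the 7, 0 had an unadjusted limma p under 0.05, against 6.16% of all genes higher and 2.98% lower. Markers of central vein and sinusoidal endothelium, the cells that send the Wnt signal, had means of -0.08 to -0.02 in KO and -0.07 to 0.15 in WT livers. Of the 9 tested, 0 were higher and 1 lower at an unadjusted p under 0.05, against 6.16% and 2.98% of all genes. That 1 was Thbd at -0.34 ± 0.14 (SE), with overlapping groups and a KO mean of 3.01, close to the filter at 2.99. Wnt9b (-0.27), Kdr (-0.22), Rspo3 (-0.21) and Clec4g (-0.03) were also below 0. Lyve1 (0.17), Stab2 (0.06), Cdh5 (0.03) and Pecam1 (0.02) were above 0, so 5 of the 9 were lower on average and 4 higher, and Selp and Wnt2 were below the filter. Of the 6 Kupffer cell markers 5 were above 0, Clec4f (0.23), Adgre1 (0.17) and Vsig4 (0.24) among them, and Marco (-0.29) below. The list had means of -0.21 to 0.40 in KO and -0.41 to 0.54 in WT livers. Without KO mouse 3 Vsig4 was at 0.02 and Clec4f at 0.08, and without WT mouse 1 Marco was at 0.49. Stellate markers, Hand2 (0.19), Dcn (-0.19) and Pdgfrb (0.35) among the 7, had means of -0.12 to 0.12 in KO and -0.29 to 0.23 in WT livers. Pdgfrb was at 0.06 without WT mouse 1 and 0.54 without WT mouse 2. Of the bile duct markers Sox9, also in the periportal list, and Krt7 (0.15) were tested, with means of 0.05 to 0.25 in KO and -0.31 to 0.04 in WT livers. Of these 2, 1 was higher and 0 lower at an unadjusted p under 0.05, Sox9 at 0.41 ± 0.14 (SE). The defining markers Krt19 and Epcam were below the filter. Slc1a2 is best known from astrocytes, whose marker Aqp4 was at 3.41 ± 0.08 in KO and 3.71 ± 0.27 in WT livers (SD, n = 3 each). Gfap, the other astrocyte marker tested, was at 3.04 ± 0.16 in KO and 3.09 ± 0.20 in WT livers (SD, n = 3 each). The part of these cells in the differences of the 9 genes was not tested.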

How the data were processed

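Per the labels' protocols, Trizol RNA (100 ng) was labelled for an Affymetrix whole-transcript array, 1 per mouse. The authors deposited log2 values for 41345 probe sets. The sources used here do not say how these were summarised or normalized, and the log base was inferred from array maxima of 12.1 to 12.2. Platform annotation gave 1 symbol to 23521 probe sets, several to 1814 and none to 16010. Symbols were updated by Entrez number to a GRCm38.p6 table, in which 23328 matched. The brightest single-symbol probe set per gene left 22180 genes, and the upper 50% of mean signal (2.99 or more) was tested. The array's build is not given, so only promoter windows carry coordinates.

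KO and WT were compared with limma 3.58.1 in R 4.3.3 (two-sided, no covariate, Benjamini-Hochberg over all 11090 genes at 0.05). The code was tested on simulated data. The number of arrays limits the precision, and the median SE was 0.114. Each mouse is a separate sample, per the labels. Members and lists were chosen with earlier results of these data known. Genes named are the 9, the 3 of smallest p per list, 19 fixed pathway genes (Gls2 was not analysed), Gpr146 and Alb. The 5 genes nearest to each of Rhbg, Oat and Glul by Pearson correlation are also named, symbols ending in Rik or starting with Gm left out. Named outside this rule were Cyp2a5 and, from the marker lists, Clec4g, Lyve1, Stab2, Cdh5, Pecam1, Selp, Marco, Krt19 and Epcam. Mouse numbers are not said to pair the samples, and none were paired in the main fit. Deviations of same-numbered mice correlated at 0.055, -0.187 and 0.147, which with 3 mice per genotype cannot exclude pairing. Alternatives were the filter, probe-set means, median centring, quantile normalization, array weights, trend and robust options, a pseudocount, a block and leaving out each mouse.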

Additional observations from a re-analysis of the deposited data

How the results depend on the processing

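With limma, 4 genes passed over all genes tested. The count was 0 in the upper 25% of signal (567 genes at an unadjusted p under 0.05), where Rhbg, Axin2, Lgr5 and Slc1a4 were not tested, and 1 with the pseudocount of 16. It was 1 with the mouse number as a block, which ended the Rhbg call (adjusted p = 0.0792), while the numbers are not known to pair the mice. It ran from 1 to 51 with a mouse left out, the 51 (11 higher, 40 lower) arising without WT mouse 3. The Rhbg adjusted p ran from 0.00513 to 0.137 with a mouse left out and was 0.0940 with the pseudocount, where its difference was -0.64. Glul was at -0.32 as the mean of its 2 probe sets. The median of the Wnt feedback list was 0.128 in the upper 25% of signal. That filter leaves out the list's dimmer genes, Nkd1 and Wif1 among them, so this median describes fewer genes. The median of the glutamate, glutamine and ornithine enzymes ran from -0.078 to -0.045 with a mouse left out. In that list 1 gene, Got1, passed with trend and robust options, and 0 to 1 with a mouse left out. The median of the carriers was -0.085 after quantile normalization. The cause was not tested. Low signals may lie near background, which limits what their differences can show. Among them are those of Lgr5, Slc1a4, Rhbg in KO livers and several genes of the Wnt feedback list.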
